A study of Rattus norvegicus with 4 samples.

Results

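The promoter-TSS centred peaks are the stretches of H3K27me3 whose centre the authors' annotation placed in the promoter-TSS class, the window around a transcription start site (TSS). They were taken as every peak whose detailed annotation begins with promoter-TSS. This gave 2106 of 129550 peaks (1.626%), which named 1962 genes. The nerves came from male Sprague Dawley rats at postnatal day 42 and were sciatic nerves of the sham side, where only the skin was cut, 1 day after transection of the opposite nerve. All animals therefore carried a contralateral nerve injury. Chromatin was cut with micrococcal nuclease, and 2 H3K27me3 libraries and 2 input libraries were made. The authors deposited a combined peak list on the rat assembly rn5 with 1 score per peak. Values of single libraries were not used here, so neither a replicate spread nor a test can be given. The transected side was not analysed here. The nerve is bulk tissue, in which the number of cells that carry the mark and its density in each cell cannot be told apart.

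H3K27me3, trimethylation of lysine 27 of histone H3, is placed by the Polycomb complex PRC2 and is known for lying over genes that are held silent in a given cell type. At developmental regulators it can spread over broad domains that cover the whole promoter, while elsewhere it forms short patches of a few nucleosomes. The sciatic nerve holds Schwann cells, perineurial cells, fibroblasts, vessels and leukocytes around axons, while the neuronal nuclei, and so neuronal chromatin, lie in the ganglia and the spinal cord.

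The working description of these peaks as lying outside CpG islands and repeats was not borne out by the file. In all 2106 the detailed annotation repeated the coarser class word for word, and 0 promoter-class peaks had a CpG island or repeat entry. Such entries occurred only among intergenic and intronic peaks, 491 for CpG islands and 40270 for repeats. The column therefore does not say whether a promoter-class peak lay in an island, and a comparison with island-centred or repeat-centred promoter peaks had no peaks. All 2086 peaks centred from 1000 bp upstream to 100 bp downstream of their nearest TSS were in the class, and 20 members were centred farther downstream, because the annotation named another transcript than the nearest one.

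The promoters of genes with the highest-scoring peaks are shown as short samples, since the sequence of the peaks themselves was not read. The 250 bases before the TSS of 6 such genes are printed here, with CG pairs in capitals. Beside them are those of 2 genes under peaks of the smallest width that contained a TSS. These 2 had the highest such scores among genes whose promoter could be used, which left out Olr1768 (5.57). The printed stretches are RefSeq promoters of GRCr8, read 5′ to 3′ on the gene's strand. They were matched by gene identifier and not by peak coordinates, which are on rn5. The stretches are chr3:80001697-80001946, plus strand for Hoxd10, chr15:15203943-15204192, plus strand for Fezf2, chr1:232743692-232743941, plus strand for Dmrt2, chr17:8367846-8368095, plus strand for Neurog1, chr1:108781303-108781552, plus strand for Slc6a5, chr18:61737445-61737694, minus strand for Rax, chr4:82691702-82691951, minus strand for Hoxa13 and chr6:30978476-30978725, minus strand for Trim54.
Hoxd10: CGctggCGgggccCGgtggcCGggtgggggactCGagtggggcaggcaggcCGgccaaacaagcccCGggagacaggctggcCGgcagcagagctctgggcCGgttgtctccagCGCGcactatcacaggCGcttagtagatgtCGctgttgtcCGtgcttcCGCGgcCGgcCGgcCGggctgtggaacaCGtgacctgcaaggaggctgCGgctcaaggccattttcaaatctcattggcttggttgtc
Fezf2: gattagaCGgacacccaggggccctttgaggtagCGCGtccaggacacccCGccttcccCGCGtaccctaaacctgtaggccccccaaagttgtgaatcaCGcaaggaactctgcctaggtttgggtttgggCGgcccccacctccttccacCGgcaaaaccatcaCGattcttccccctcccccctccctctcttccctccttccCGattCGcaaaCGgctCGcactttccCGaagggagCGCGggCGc
Dmrt2: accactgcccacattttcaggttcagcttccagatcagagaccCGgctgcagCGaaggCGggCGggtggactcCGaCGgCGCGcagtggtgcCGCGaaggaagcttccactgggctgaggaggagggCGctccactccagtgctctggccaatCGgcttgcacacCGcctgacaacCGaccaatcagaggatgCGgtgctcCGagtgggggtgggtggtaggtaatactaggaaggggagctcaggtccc
Neurog1: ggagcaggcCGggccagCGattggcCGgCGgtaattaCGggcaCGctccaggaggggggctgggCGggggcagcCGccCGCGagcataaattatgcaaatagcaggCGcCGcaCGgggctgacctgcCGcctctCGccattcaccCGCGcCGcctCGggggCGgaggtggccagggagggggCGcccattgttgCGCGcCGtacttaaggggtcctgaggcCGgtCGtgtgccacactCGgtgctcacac
Slc6a5: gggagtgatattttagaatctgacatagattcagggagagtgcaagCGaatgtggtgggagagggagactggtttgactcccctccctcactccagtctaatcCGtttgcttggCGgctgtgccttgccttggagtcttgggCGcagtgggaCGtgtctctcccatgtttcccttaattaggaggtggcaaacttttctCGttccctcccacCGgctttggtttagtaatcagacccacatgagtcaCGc
Rax: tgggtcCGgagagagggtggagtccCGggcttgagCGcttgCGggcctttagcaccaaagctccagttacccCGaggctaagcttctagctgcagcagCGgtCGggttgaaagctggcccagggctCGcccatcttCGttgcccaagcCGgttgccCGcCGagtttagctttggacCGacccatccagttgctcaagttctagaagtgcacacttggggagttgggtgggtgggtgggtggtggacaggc
Hoxa13: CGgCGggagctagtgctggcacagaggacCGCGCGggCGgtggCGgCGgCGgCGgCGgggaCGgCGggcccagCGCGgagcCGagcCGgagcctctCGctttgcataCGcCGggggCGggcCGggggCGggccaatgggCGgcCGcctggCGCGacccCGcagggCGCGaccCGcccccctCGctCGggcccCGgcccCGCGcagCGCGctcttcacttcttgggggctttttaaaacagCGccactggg
Trim54: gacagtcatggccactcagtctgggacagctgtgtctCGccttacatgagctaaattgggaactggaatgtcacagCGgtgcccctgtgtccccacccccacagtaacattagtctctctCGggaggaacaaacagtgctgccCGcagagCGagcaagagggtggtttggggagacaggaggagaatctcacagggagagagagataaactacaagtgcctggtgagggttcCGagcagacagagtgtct

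Among the 6 promoters under broad peaks, Neurog1 held 27 CG pairs in the printed stretch, Hoxd10 21, Fezf2 18, Dmrt2 16, Rax 13 and Slc6a5 8. The CpG observed to expected ratio over the 300 bases from 250 before to 50 after the TSS ranged from 0.542 at Slc6a5 to 0.951 at Neurog1. The smallest-width pair spanned a wider range. Hoxa13, which patterns the distal limb and hindgut, held 39 CG pairs (ratio 0.953) and had a 150 bp peak with a score of 8.66. Trim54, a ubiquitin ligase of striated muscle, held 6 (ratio 0.271) and had one with 4.95. These counts and ratios describe the promoter and not the peak, which at Hoxa13 reached only 41 bp upstream of the TSS. The highest peak naming Hoxa13 scored 1515.9 and was centred at −9447 bp. Short peaks over a TSS thus occurred at both a CG-dense and a CG-poor promoter. Of 41 genes with such a peak, 24 had a usable single promoter, with a median ratio of 0.263. The pair therefore does not show how often each kind occurs. On either strand, TATAAA, the TATA box core, was in none of the 8 windows and in 13.3% of 17545 protein-coding genes with a single promoter in the table. CCAAT was in those of Hoxd10, Dmrt2, Neurog1, Hoxa13 and Trim54 and in 38.4% of that set. GGGCGG, the GC box, was in those of Fezf2, Dmrt2, Neurog1 and Hoxa13 and in 43.5%. These are matches of letters only. A comparison of promoter composition over all member genes was void, since a usable single promoter was in the table for 1390 of 1916 protein-coding genes (72.55%), below the coverage required for it.

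The members were wider and scored higher in the median than the rest of the list, and no test was made. Their median width was 392 bp (95% interval 357 to 428, quartiles 150 and 1120.25) and their median score 9.9 (8.87 to 10.7, quartiles 4.13 and 33.55). In the 127444 other peaks the medians were 191 bp and 4.54. Each peak's score was given by the authors. Below 10 every score was a whole multiple of 0.20625 within 0.005, and the counting intervals given beside scores assume that 1 such step is 1 sequenced tag. All intervals treat peaks as independent and cover counting error only. Of the members, 1516 (71.98%) scored at or above 4.54, the median of the list, and 1057 (50.19%) were in its top 25%. The smallest width, 150 bp, was found in 557 members (26.45%, 24.61 to 28.37%) and in 45.54% of other peaks.

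Peaks past the window's downstream end were similar to the members. The 1816 other peaks centred more than 100 and up to 1000 bp downstream of a TSS had medians of 444 bp and 10.9, and 23.46% contained the TSS against 27.68% (25.81 to 29.63%) of members. Those centred more than 1000 and up to 2000 bp upstream (2152 peaks) had 272 bp and 6.81. The 491 peaks centred in CpG islands had 747 bp and 23.5, and the 96 centred in 5′ untranslated exons had 880.0 bp and 25.5. The members therefore stood above the list as a whole but below both of these small classes in median width and score.

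Median width and score were lower in the 100 bp past each end of the window than in the 100 bp before it, but other bins varied as much. The outermost 100 bp upstream held peaks with medians of 431 bp (width) and 10.3 (score), and the next 100 bp held 291 bp and 7.115. In the 100 bp from the TSS on they were 571 bp and 16.7, against 325.5 bp and 8.765 in the next 100 bp, which still held 8 members. Farther out they were 409 bp and 9.49 from 1300 to 1201 bp upstream, and 424 bp and 10.1 from 200 to 299 bp downstream. Inside the window, from 300 to 201 bp upstream, they were 238 bp and 5.78. A step at the window's ends is therefore not shown. Single peaks at the ends spanned a wide range. The outermost members upstream were those of Gabrq (854 bp, score 20.8) and Krt24 (447 bp, 9.69), both at 1000 bp. The next peaks, 1 bp farther out, named Srrm3 (199 bp, 5.36) and Pkia (150 bp, 2.68). Downstream, the last members of the regular window were those of Adipoq (258 bp, 5.78) and the non-coding LOC102550325 (375 bp, 9.28), both at 100 bp. The first peaks outside named Dpysl5 (4506 bp, 222.4), 1 bp beyond the end, and Enah (150 bp, 3.09), 3 bp beyond it. Dpysl5, a neuronal cytoskeleton regulator, thus had a broad peak that the class missed by 1 bp.

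Most members lay upstream of the TSS, as the window dictates. The centre was upstream in 1960 (93.07%, 91.90 to 94.08%) and downstream in 146 (6.933%), and 90.91% of the window is upstream. The median distance was −547.5 bp (quartiles −761 and −302, negative upstream). On equal ground, within 100 bp of the TSS on either side, 110 of 236 members (46.61%, 40.35 to 52.98%) were centred upstream and 126 downstream, so the sides did not differ beyond the counting error. The extent showed that few of these peaks covered a TSS. The peak ended before the TSS in 1503 members (71.37%), with a median gap of 359.5 bp. It contained the TSS in 583 (27.68%) and began after it in 20 (0.9497%), with a median gap of 72.5 bp.

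Peak centres thinned out around the TSS. From 1000 to 400 bp upstream the list held 229.7 centres per 100 bp on average (209 to 265 per bin). From 300 bp upstream to 200 bp downstream it held 126.8 (110 to 144), and from 400 to 1000 bp downstream 228.5 (203 to 248). The lowest bin of the first range was above the highest bin around the TSS, and so was the lowest bin downstream. Farther out, from 1000 to 2000 bp downstream, the mean was 212.6, and from 2000 to 1000 bp upstream it was 215.2. Short peaks had the same dip, while broad ones had no low of their own at the TSS. Peaks of 150 bp had 57.0 per 100 bp upstream, 37.8 around the TSS and 54.83 downstream. For peaks of 1000 bp or more these means were 60.5, 43.6 and 67.17, but the bins within 200 bp of the TSS held 45 to 53, against 29 to 45 from 600 to 200 bp upstream and 40 to 47 from 200 to 600 bp downstream. Their higher counts began more than 600 bp from the TSS on either side, with 59 to 77 per bin upstream and 72 to 87 downstream. In total, 1960 peaks were centred in the 1000 bp before a TSS and 1962 in the 1000 bp from it on, so over windows of equal length the sides did not differ in number. Nucleosome occupancy and the input were not analysed here, and their part in the dip was not tested.

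**Figure D1:**
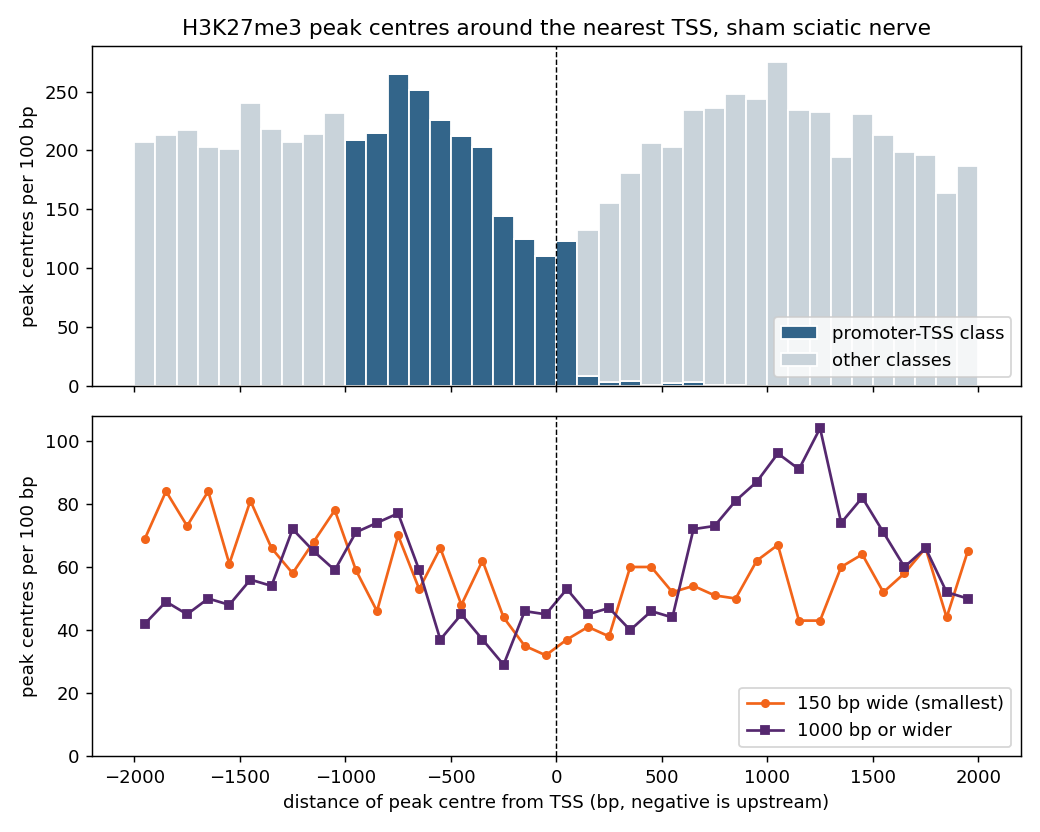
Number of H3K27me3 peak centres per 100 bp against the distance from the nearest TSS in bp, for all peaks (upper plot, promoter-TSS class dark, other classes light) and for peaks of 150 bp and of 1000 bp or more (lower plot). The counts drop to 126.8 per 100 bp on average between 300 bp upstream and 200 bp downstream, from 229.7 farther upstream and 228.5 farther downstream.

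Many TSSs with a member upstream and no peak of their own over them had a further peak downstream. Members that ended before the TSS belonged to 1422 TSSs, of which 124 (8.720%) were covered by another peak. Of the other 1298, 872 (67.18%) had a further peak that began within 2000 bp downstream. The median bare stretch between both peaks was 739.5 bp (quartiles 481.5 and 1118.5). The downstream peak scored higher at 543 of these TSSs (62.27%), the member at 317 (36.35%), and 12 were equal. The median score was 8.87 for the members and 13.6 for the downstream peaks, with median widths of 349 and 541.5 bp. Upstream peaks had to be centred within 1000 bp while downstream ones had to begin within 2000 bp, so the sides were not chosen alike. The share with a downstream peak was not counted for TSSs without an upstream member. Peaks were clustered in general, as 88.34% of non-member peaks had another within 5000 bp. Only peaks nearest to the same transcript counted as covering a TSS, so a bare stretch may lie under a peak credited elsewhere. The count of flanked TSSs was added after the values were seen, as were the genes named next. Ngfr, the low-affinity neurotrophin receptor p75, had a member of 461 bp (score 14.4, 11.25 to 18.24) that ended 89.5 bp before the TSS, and a peak of 6321 bp (288.4) that began 153.5 bp after it. Slc17a7, a vesicular glutamate transporter, had 1282 bp (72.0) before and 8521 bp (484.9) after a bare stretch of 236.5 bp. Crabp1, a retinoic acid binding protein, had 757 bp (22.9) before and 6980 bp (296.4) after 373.5 bp. Trim71, a regulator of embryonic stem cells, had 225 bp (5.16) before and 9503 bp (486.8) after 920.0 bp. At these genes the promoter-TSS peak was the minor upstream neighbour of a broad peak over the gene.

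Width and score rose together over the members (Spearman rho 0.974 over 2106 peaks, a description, since both are read from the same tags). The 557 members of 150 bp had a median score of 3.3, and 7.899% contained the TSS. The 969 members wider than that but under 1000 bp had a median score of 9.69 and 12.38% did. The 492 members of 1000 to under 5000 bp had 56.0 and 67.28%. The 88 members of 5000 bp or more, each of another gene, had a median width of 6776 bp, a median score of 302 and all contained the TSS. A peak over 2000 bp wide that is centred within 1000 bp of a TSS must contain it, so the last share is fixed by geometry. Density rose as well, from a median of 22 score units per kb at 150 bp to 44.85 at 5000 bp or more, so the broad peaks were not only longer. The 88 broad members reached a median of 3827.75 bp upstream and 3028.25 bp downstream.

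A small number of members carried most of the signal. The 22 highest-scoring members (the top 1%) held 21.30% of the members' summed score, and the top 10% (211) held 63.02%. Together the members covered 2.293 Mb.

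**Figure D2:**
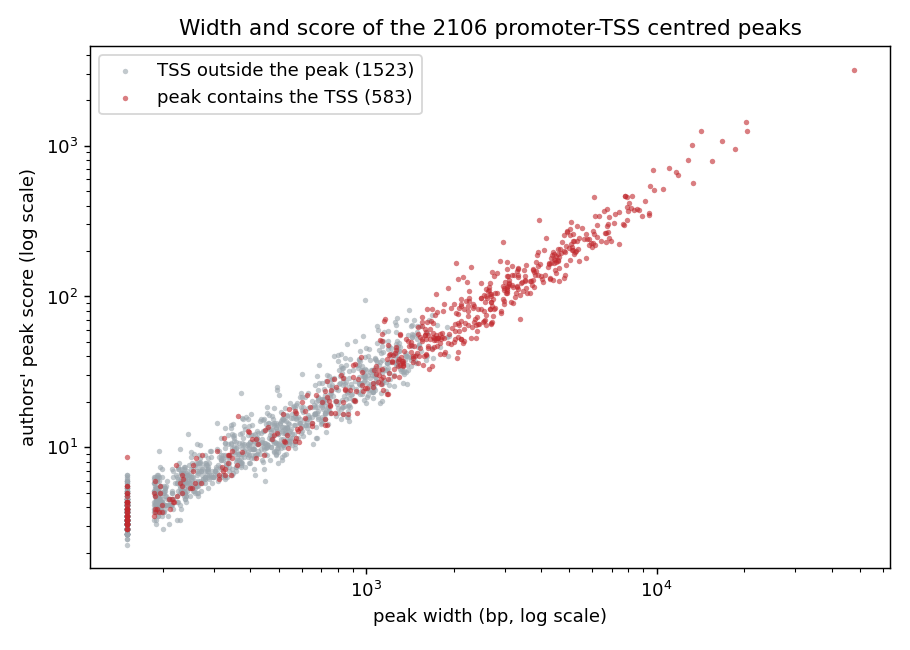
Authors' peak score against peak width in bp, both on log axes, for the 2106 promoter-TSS centred peaks, with the 583 that contain the TSS in red and the other 1523 in grey. Scores climb with width up to the Hoxb8 peak of 47839 bp and 3183.4, and the column at the left is the 557 peaks of 150 bp.

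The highest-scoring members lay over patterning genes and a few enzymes and transporters. The first was at Hoxb8, a Hox gene of body axis patterning, on rn5 chromosome 10 from 83909652 to 83957491, and reached 24575.5 bp upstream and 23263.5 bp downstream of the TSS with a score of 3183.4 (3133 to 3234). A peak of this length runs past neighbouring genes of its cluster but is credited to 1 TSS. Its score interval lay above that of every other member described here.

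Hoxd10, a limb and axis patterning gene, had 14180.0 bp (chromosome 3, 68072538 to 68086718) and 1253.1 (1222 to 1285), the densest broad member at 88.37 score units per kb. Fezf2, a forebrain regulator, had 20547 bp (chromosome 15, 16844570 to 16865117) and 1245.3 (1214 to 1277). Their score intervals overlapped, while the Hoxd10 peak was shorter. Fezf2 was nearly symmetric, with 10356.5 bp upstream and 10190.5 bp downstream. The promoters of both, printed above, were rich in CG pairs.

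Dmrt2, which acts in somite patterning, had 16772 bp (chromosome 1, 250911893 to 250928665) and 1069.3 (1040 to 1099). Neurog1, a proneural factor of sensory neurons, had 13266 bp (chromosome 17, 11308368 to 11321634) and 1003.7 (975.6 to 1032). Slc6a5, the neuronal glycine transporter GlyT2, had 18628 bp (chromosome 1, 106323813 to 106342441) and 948.0 (920.7 to 975.7). Slc6a5 was the only transporter among the members of this paragraph, and its printed promoter had 8 CG pairs, the fewest of the 6 under broad peaks. Rax, the retinal homeobox gene, had 12838 bp (chromosome 18, 60832343 to 60845181) and 798.7 (773.6 to 824.2), centred 85 bp downstream of its TSS.

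Aldh1a2, which makes retinoic acid, had 15490.0 bp and 792.1, and a still higher peak of 967.2 was centred 18467 bp downstream. Nkx1-2, a homeobox gene, had 11064 bp and 705.0. Duox2, a hydrogen peroxide producing oxidase, had 9749 bp and 688.9, and Lipg, endothelial lipase, had 11623 bp and 664.6. All of these highest-scoring members contained the TSS.

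The 8 widest members after these were again mostly developmental or neuronal genes. Six4, a homeobox gene of muscle and kidney precursors, had 13336 bp (561.3), and the proneural factor Neurod1 had 11830.0 bp (638.0). Msx3, a dorsal neural tube homeobox gene, had 10492 bp (511.6). Pcdh17, a neuronal cell adhesion protein, had 9773 bp (506.4), and RT1-M5, a class I histocompatibility gene, had 9513 bp (540.4). Htr1b, a serotonin receptor, had 9439 bp (346.3). Sgpp2, a sphingosine phosphate phosphatase, had 9423 bp (359.3), and Ovol1, an epithelial zinc finger factor, had 9141 bp (432.3). Ovol1 had no other peak to its name, while Neurod1 was named by 51 peaks.

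**Figure D3:**
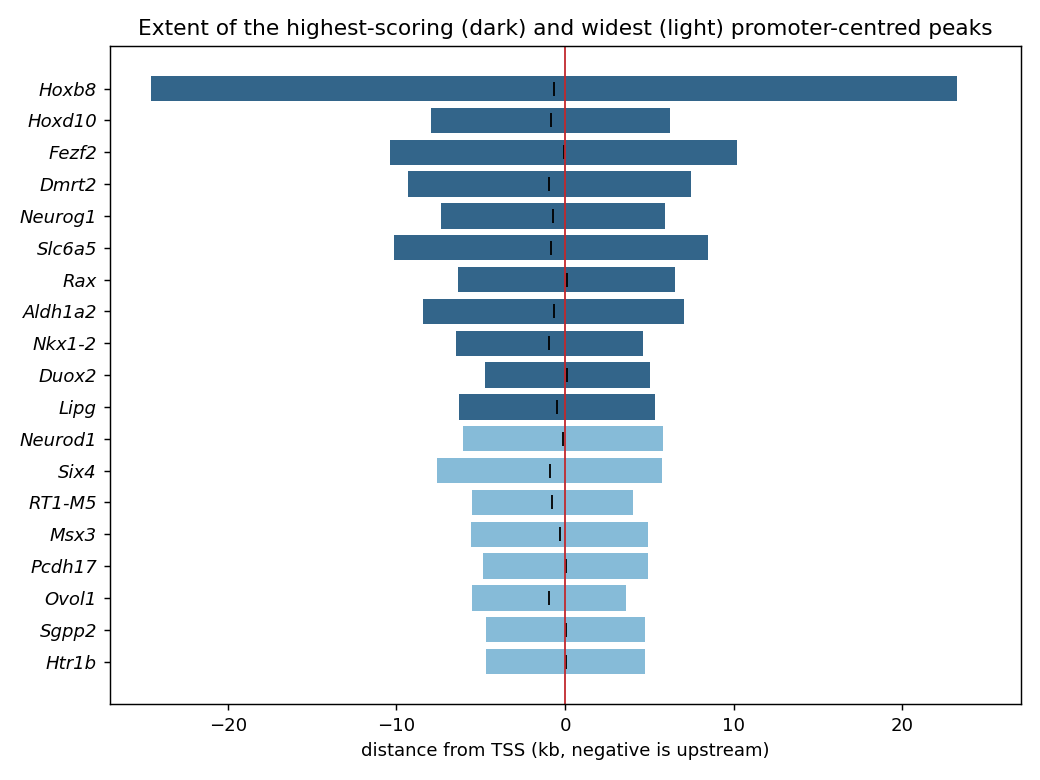
Extent of 11 of the 12 highest-scoring members (dark) and the 8 widest others (light) along the distance from the TSS in kb, with the TSS as a red line and each peak's centre as a black tick. All 19 bars cross the TSS, and the Hoxb8 bar reaches 24575.5 bp upstream and 23263.5 bp downstream.

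Members were seldom isolated, and most were not the main peak of their gene. Another peak lay within 5000 bp of 1963 members (93.21%, 92.05 to 94.21%), and the same held for 88.34% of other peaks. The member was the highest-scoring peak naming its gene in 630 cases (29.91%, 28.00 to 31.91%) and the only one in 74 (3.514%). Of the genes, 139 (7.085%) had more than 1 member. Adam11, Lmo2, Cav1, Pde4d and LOC100911827 had 3 each, and these 5 are named because of that count.

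Some members were tied to the starts of 2 transcripts. In 69 members the annotated transcript was not the nearest one. They were 2 transcripts of the same gene in 44, of different genes in 24, and in 1 the annotated transcript was not in the gene table. Of the 24, 16 were centred over 100 bp downstream of the nearest TSS. The broadest was the Duox2 peak, which the annotation placed at the start of Duoxa2, the maturation factor of the same oxidase. The peak of Dmgdh (2913 bp, 77.1), a choline breakdown enzyme, was placed at Bhmt2, a methyltransferase of the same pathway. That of Ccr10 (1239 bp, 41.0), a chemokine receptor, was placed at Cntnap1, an axonal protein of the paranodal junction. That of Ptgs2 (799 bp, 18.2), cyclooxygenase 2, was placed at its antisense gene Ptgs2os. The 2 members farthest downstream were those of Pla2g2c (828 bp, 657 bp wide, 10.5), which the annotation placed at Ubxn10, and Cav1, the caveolae protein (717 bp, 223 bp wide, 5.78). The Cav1 peak is not among the 24. The peaks of the 24 cannot be assigned to 1 gene of the pair.

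Gene lists were then counted against a background. Of 1962 genes 1956 (99.69%) matched the table of rat genes of GRCr8, and 1916 of its 23154 protein-coding genes had a member, a background of 8.28%. Among the 10301 protein-coding genes that any peak names it was 18.6%. With a score at or above the list's median it was 6.26%, with a peak that contains the TSS 2.43%, and with a peak of 1000 bp or more 2.44%. Over the 1916 genes the highest member had a median score of 11.3 and a median width of 455.5 bp. No enrichment was tested, and the Wilson intervals below cover counting error only.

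Of 29 genes of Schwann cells and myelin, 6 (20.69%, 9.846 to 38.39%) had one, with a median score of 29.3, and in 2 the peak contained the TSS. The interval of the share lies above the background of 8.28%, but among the 21 of these genes that any peak names the share was 28.57% (13.81 to 49.96%), an interval that includes the 18.6% of all named genes. Ncam1, an adhesion molecule of non-myelinating and immature Schwann cells, had 3590.0 bp (chromosome 8, 52754617 to 52758207) and a score of 105.4, centred at −855 bp. Mal, a myelin proteolipid, had 2030.0 bp (chromosome 3, 127097791 to 127099821) and 52.4. Nfasc, an adhesion protein of nodes and paranodes, had 1371 bp and 42.1, beside a higher peak of 143.4 centred 2042 bp downstream. Ugt8, which makes the myelin lipid galactosylceramide, had 536 bp and 16.5, and Gldn, which organises the nodes, had 866 bp and 15.9. Ngfr, described above, had 14.4. The range from 14.4 to 105.4 placed all 6 above the median score of all members, 9.9.

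Of 36 genes that the nerve uses after injury, 8 (22.22%, 11.72 to 38.08%) had a member. Among the 32 that any peak names this was 25% (13.25 to 42.11%), an interval that includes 18.6%. The median score over the 8 genes was 22.4, and in 2 of them a member contained the TSS. Bdnf, a neurotrophin, had 2 members at separate transcripts. The broader one had 8583 bp (chromosome 3, 107387062 to 107395645) and 377.3, and the other had 2223 bp (107371366 to 107373589) and 124.4. Both contained their TSS. Lif, a cytokine of the interleukin 6 family that rises after nerve injury, had 2079 bp and 54.0, centred at −972 bp.

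In the other 6 a higher-scoring peak was centred downstream of the TSS. Over all members only 29.91% were the highest peak of their gene, and the side of the higher peak was not counted for the rest. Ngfr, described above, is 1 of the 6. Igfbp2, a binding protein of insulin-like growth factors, had 1365 bp and 41.0 upstream, against 200.9 at 2766 bp downstream. Ntf3, neurotrophin 3, had 805 bp and 26.4, against 286.3 at 1400 bp. Igfbp3 had 597 bp and 18.4, against 66.4 at 1394 bp. Artn, the neurotrophic factor artemin, had 506 bp and 14.6, against 118.0 at 1757 bp. Tnfrsf1b, a receptor of tumour necrosis factor, had 621 bp and 14.0, against 26.2 at 668 bp.

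Developmental transcription factors had few but broad members. Of 139, 12 (8.633%, 5.007 to 14.48%) had one, near the background of 8.28%. Any peak named 118 of them, and among these the share was 10.17% (5.914 to 16.94%), below the 18.6% of all named genes. Their median score was 215.15 and their median width 4164.5 bp, and in 9 the peak contained the TSS. Beside Neurog1 and Neurod1, Tbx1, a gene of pharyngeal development, had 7788 bp and 461.2, and Tbr1, a cortical neuron factor, had 6105 bp and 453.8. The list also held members far below the gene's highest peak, and short ones. Foxa2, a gene of endoderm and floor plate, had 157.0, against 1441.0 at its highest peak, centred 10847 bp downstream. Sox9, a regulator of cartilage and glial precursors, had 150 bp and 2.89. Foxa2 and Sox9 are named here after their values were seen. The Hox family had 6 of 40 genes with a member (15.00%, 7.061 to 29.07%), led by Hoxb8, Hoxd10 and Hoxd12 (3924 bp, 319.3), and in 5 of the 6 genes a member contained the TSS.

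Signalling ligands had members more often and with moderate scores. Of 63, 17 (26.98%, 17.58 to 39.03%) had one, each gene's highest being centred upstream, with a median score of 20.0. Over all genes with a member the highest was centred upstream in 93.48%, as the window dictates. Among the 58 named by any peak the share was 29.31% (19.18 to 42.01%). Wnt3 had 6729 bp and 377.3, Nodal, a ligand of the left-right axis, had 4925 bp and 267.7, and Bmp8a had 5410.0 bp and 243.0. At the low end Wnt7a, named here for that, had 150 bp and 3.3 upstream and a peak of 5291 bp with 221.7 that began 109.5 bp after its TSS.

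The potassium channel family and the neuronal function and peptide hormone lists had the highest shares over all genes of a list. Fibroblast and perineurial genes (35.00%) were close behind. Among genes that any peak names, other lists had similar shares. These were collagens (44.00%), fibroblast and perineurial genes (41.18%), muscle and adipocyte genes (40.62%) and the ADAM family (40.00%). In the neuronal function list 35 of 88 genes (39.77%, 30.18 to 50.22%) had a member, and in 14 of them it contained the TSS. Among the 81 named by any peak the share was 43.21% (32.97 to 54.06%). Htr1b led with 346.3, followed by the nicotinic receptor subunit Chrna3 (5052 bp, 279.1) and the serotonin receptor Htr2c (4672 bp, 194.7, centred at −806 bp). The lower part reached single patches of 150 bp. Of the potassium channel family, 40 of 95 genes (42.11%, 32.67 to 52.15%) had a member, with a median score of 29.3. The highest member was centred upstream in 39 of the 40, near the 93.48% over all genes with a member. Among the 86 named by any peak the share was 46.51% (36.35 to 56.98%). Kcnh5 had 8918 bp and 340.1, the leak channel Kcnk10 had 7905 bp and 322.6, and the related Kcnk13 had 6752 bp and 291.7. These 3 were centred at −877, −824 and −643 bp, and all contained the TSS.

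Of 77 peptide hormone and neuropeptide genes, 27 (35.06%, 25.35 to 46.20%) had a member with a median score of 27.2, and in 13 it contained the TSS. Among the 65 named by any peak the share was 41.54% (30.36 to 53.66%). Nmu, which encodes neuromedin U, had 6091 bp and 257.4, centred 8 bp from the TSS. Pomc, the precursor of melanocortins, had 6128 bp and 218.6, and Calca, which encodes calcitonin and its related peptide, had 4568 bp and 172.6. The solute carrier family had 57 of 397 genes (14.36%, 11.25 to 18.15%), led by Slc6a5, by the intestinal glucose transporter Slc5a1 (6581 bp, 371.1) and by the bicarbonate transporter Slc4a8 (6250.0 bp, 248.8). Protocadherins had 5 of 50 (10.00%), led by Pcdh17, Pcdh9 (86.8) and Pcdh11x (26.2). Among genes that any peak names, solute carriers had 21.51% (16.99 to 26.84%) and protocadherins 27.78% (12.50 to 50.87%). Both intervals include the 18.6% of all named genes.

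**Figure D4:**
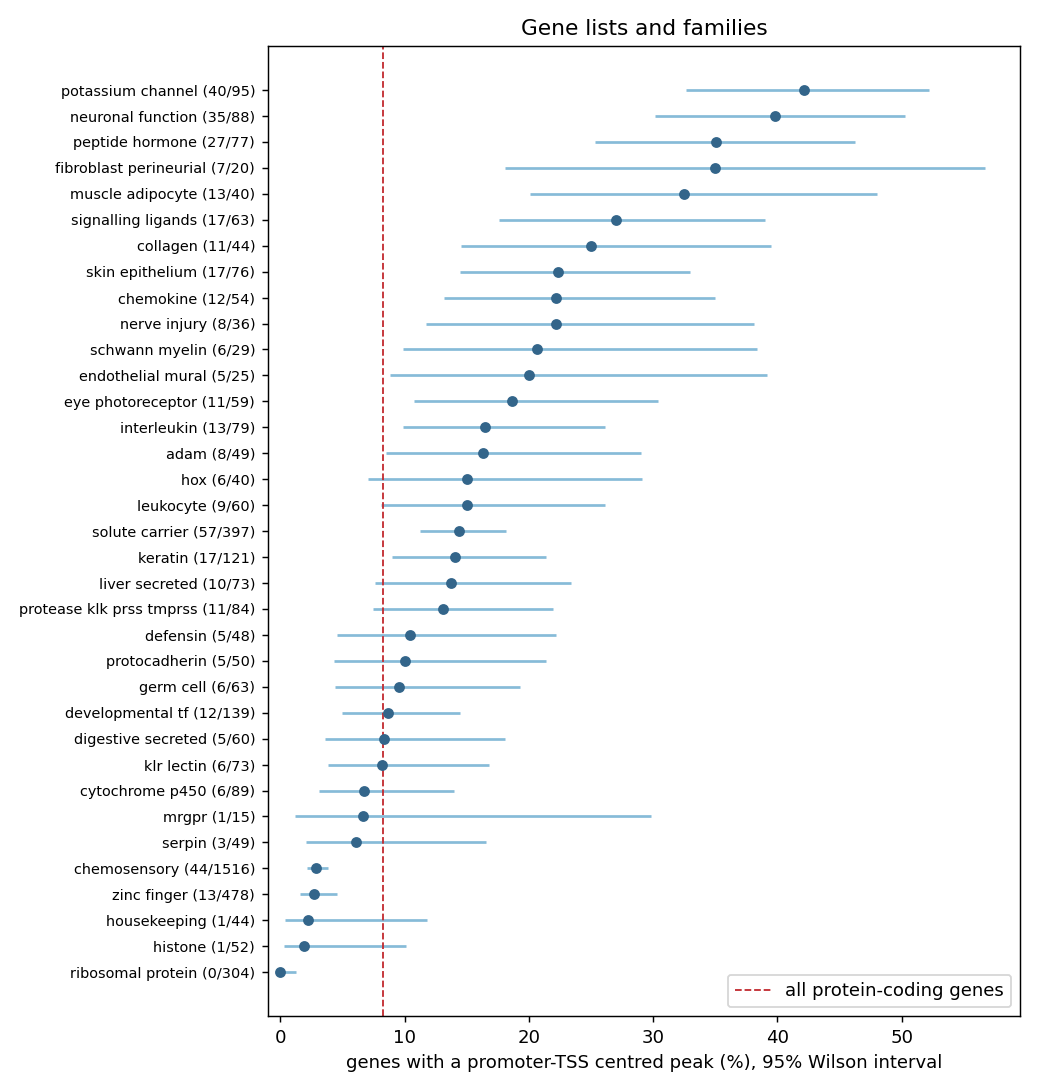
Share of the genes of each list or family with a promoter-TSS centred peak, in percent, with 95% Wilson intervals and the number with a peak of the number in the gene table. The dashed line is the 8.28% of all protein-coding genes, and shares run from 0 of 304 ribosomal protein genes to 42.11% of potassium channels.

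Markers of other cells of the nerve had low members for fibroblasts and leukocytes. Of 20 fibroblast and perineurial genes, 7 (35.00%, 18.12 to 56.71%) had one, but with a median score of 4.54. Fbln1, an extracellular matrix protein, had 1046 bp and 30.1. Cd34, a surface glycoprotein of stromal and vascular cells, had 707 bp and 15.9. Cldn1, a tight junction protein of the perineurium, had 201 bp and 5.16. The collagen family was alike, with 11 of 44 genes (25%, 14.57 to 39.44%), a median score of 4.13 and a median width of 150 bp. Among its members Col9a2, a collagen of cartilage, stood apart with 3504 bp and 149.1, followed by Col15a1 (37.1) and Col11a1 (15.3). Of 60 leukocyte genes, 9 (15.00%, 8.097 to 26.11%) had a member, with a median score of 4.95. Ciita, the activator of class II histocompatibility genes, had 1511 bp and 56.1, the macrophage chemokine receptor Cx3cr1 had 11.1, and the T cell receptor component Cd3g had 8.25. Among genes that any peak names the shares were 41.18% (21.61 to 63.99%) for fibroblast and perineurial genes and 44.00% (26.67 to 62.93%) for collagens. Both intervals lay above the 18.6% of all named genes. For leukocyte genes the share was 20.93% (11.42 to 35.21%), an interval that includes 18.6%.

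Endothelial and mural genes had 5 of 25 (20.00%, 8.861 to 39.13%) with a median score of 58.0. Kcnj8, a potassium channel of pericytes, had 2626 bp and 108.7. Des, the muscle intermediate filament desmin, had 3194 bp and 90.8, and the mural receptor Notch3 had 1498 bp and 58.0, with 127.5 at its highest peak. Muscle and adipocyte genes had 13 of 40 (32.50%, 20.08 to 47.98%), with a median score of 12.2. Actn2, an actinin of the sarcomere, had 3654 bp and 126.2, Des is also in this list, and Lpl, lipoprotein lipase, had 1897 bp and 62.3. Which cells of the nerve carry these peaks was not tested.

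Genes of other organs varied by organ. Skin and epithelial genes had 17 of 76 (22.37%, 14.46 to 32.93%), led by Ovol1 (432.3), the tight junction gene Cldn7 (7211 bp, 351.5) and the desmosome gene Perp (4582 bp, 192.0). The keratin family had 17 of 121 (14.05%, 8.961 to 21.35%) with a median score of 5.16, led by the hair follicle keratin Krt75 (59.4), the corneal keratin Krt12 (30.7) and Krt83 (24.1). Eye genes had 11 of 59 (18.64%, 10.74 to 30.38%), led by Rax, the rod factor Nrl (32.4) and the lens crystallin Crygb (30.3). Liver genes had 10 of 73 (13.70%, 7.614 to 23.41%), led by the apolipoprotein Apoa5 (40.2), with Serpina3n (9.49) and the fibrinogen chain Fgb (8.87) far below. Digestive genes had 5 of 60 (8.333%), led by Slc5a1, with the pancreatic colipase gene Clps (6.6) below it. Germ cell genes had 6 of 63 (9.524%) with a median score of 4.435, led by the meiotic recombinase Dmc1 (14.0), Adam2 (9.28) and Spo11 (4.54). Among genes that any peak names, skin (36.17%, 23.97 to 50.46%) and keratin genes (34.00%, 22.44 to 47.85%) had intervals above 18.6%. The intervals of eye (23.40%), liver (21.28%), digestive (14.71%) and germ cell genes (15.00%) include it.

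Cytokine and protease families had intermediate shares, while cytochromes P450 and serpins lay below the background of 8.28%, with intervals that include it. The interleukin family had 13 of 79 genes (16.46%, 9.877 to 26.15%), led by the receptor genes Il20ra (4932 bp, 272.3), Il1rl2 (174.7) and Il17rb (122.1). The chemokine family had 12 of 54 (22.22%, 13.20 to 34.94%), led by Cxcl6 (4403 bp, 196.4), Ccl21 (114.9) and Ccr10 (41.0). Kallikrein and related proteases had 11 of 84 (13.10%), led by Klk8 (100.7), Prss12 (34.4) and Prss34 (11.3). The ADAM family had 8 of 49 (16.33%), led by Adamts18 (46.0), Adamts2 (31.1) and Adamts19 (25.4). Cytochrome P450 genes had 6 of 89 (6.742%), led by Cyp2s1 (58.0), Cyp11a1 (26.6) and Cyp1a1 (18.2), and serpins had 3 of 49 (6.122%), led by Serpine2 (40.6). Among genes that any peak names the ADAM share was 40.00% (21.88 to 61.34%), above 18.6%. Interleukins (22.03%), chemokines (28.57%), the kallikrein group (24.44%), cytochromes P450 (13.33%) and serpins (12.50%) had intervals that include it.

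Chemosensory receptors, zinc finger genes and ubiquitously expressed genes had low shares. Chemosensory receptors had 44 of 1516 genes (2.902%, 2.169 to 3.874%), with a median score of 5.26. Among the 258 of them that any peak names the share was 17.05%, close to the 18.6% of all named genes. Olr386 (67.5), Olr1343 (52.2) and Olr1463 (49.7) led them. Zinc finger genes had 13 of 478 (2.720%, 1.596 to 4.597%), and 8.904% (5.277 to 14.64%) of the 146 named, led by Zfp385a (93.4), Zbtb8a (52.4) and Zfp36l2 (46.4). Defensins had 5 of 48 (10.42%), led by Defb30 (36.1), and lectin-like receptors of natural killer cells and their kin had 6 of 73 (8.219%), led by Clec12b (16.7). Both were near the background of 8.28%. Among genes that any peak names their shares were 23.81% (10.63 to 45.09%) and 23.08% (11.03 to 42.05%), with intervals that include 18.6%. Of 15 Mrgpr genes, receptors of itch neurons, Mrgprx3 had a member (2.89), and of 52 histone genes Hist1h1b did (30.3). Of 44 housekeeping genes 1 had a member, Chmp2a, an endosomal sorting protein (4.54), and of 304 ribosomal protein genes none did, for which the upper Wilson bound is 1.248%. The ribosomal protein and housekeeping shares were below the background of 8.28%, though the interval of the latter (0.4023 to 11.81%) includes it. Any peak named only 54 of the ribosomal protein genes, and for 0 of 54 the upper bound is 6.641%. Of the 17 housekeeping genes that any peak names, 1 had a member (5.882%, 1.046 to 26.98%), an interval that includes 18.6%.

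Along the chromosomes the share of protein-coding genes with a member ran from 4.81% on X (45 of 936, 3.612 to 6.373%) to 10.5% on chromosome 20 (67 of 639, 8.341 to 13.10%). These intervals did not overlap. In 24 runs of at least 3 neighbouring genes each gene had a member, and these runs held 76 genes. Over all protein-coding genes 8.28% had a member, and the number of runs under random placement was not computed. Clustering is therefore not shown by this count. The longest runs had 4 genes. One of these was Pkd2, Spp1, Mepe and Ibsp on chromosome 14, where the last 3 encode bone and tooth matrix proteins, with a median score of 5.465. Another was Il1rn, Psd4, Pax8 and Cacna1b on chromosome 3, with 44.75. The myosin heavy chains Myh3, Myh2 and Myh1 on chromosome 10 formed a run with low scores (median 3.51). The order of genes was taken from GRCr8, and these runs are named after their values were seen.

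Non-coding genes gave 44 members, which named 36 genes, and 1 member named a pseudogene. Of these, 21 members named 19 miRNA genes, 18 of which matched the RefSeq miRNA table. All annotated non-coding and miRNA genes were not counted, so no share with a member can be given. For these the annotated start is the start of the hairpin and not of its longer primary transcript, so the peak's position relative to the true promoter is unknown. The 3 highest were at Mir196a, Mir34c and Mir10b, whose mature 5p strands are printed 5′ to 3′ with the seed (bases 2 to 8) in capitals, from GRCr8 at chr7:135988900-135988921, plus strand, at chr8:60306133-60306155, minus strand and at chr3:80035886-80035907, plus strand. The 3 seeds differ from each other.
rno-miR-196a-5p: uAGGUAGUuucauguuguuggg
rno-miR-34c-5p: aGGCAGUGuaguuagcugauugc
rno-miR-10b-5p: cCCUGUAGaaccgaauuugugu

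Mir196a, which lies within a Hox cluster and targets Hox transcripts, had a member of 7924 bp (rn5 chromosome 7, 142370679 to 142378603) with a score of 453.2 (434.4 to 472.5). Mir34c, a target of p53, had 4243 bp (chromosome 8, 54086256 to 54090499) and 157.0 (146.0 to 168.5). Mir10b, which lies in the Hoxd cluster, had 2613 bp (chromosome 3, 68112440 to 68115053) and 97.6 (88.96 to 106.8). The score intervals of the 3 did not overlap. Of the 21 miRNA members 7 were 1000 bp or wider, 10 contained the start and 9 had the smallest width. Of all 2106 members, 580 were 1000 bp or wider, 27.68% contained the TSS and 26.45% had the smallest width. Among longer non-coding RNAs, Crnde, a transcript expressed in development and tumours, had 1071 bp and 39.2, and the imprinted H19 had 413 bp and 11.1. Terc, the RNA of telomerase, had 150 bp and 4.13. The non-coding genes of this paragraph were named after their values were seen.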

How the data were processed

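H3K27me3 was profiled by MNase-ChIP-seq (micrococcal nuclease, anti-H3K27me3 antibody, Illumina sequencing) in 2 libraries and 2 inputs, per the labels' protocols. The submitters' processing notes name CASAVA 1.8.2, Bowtie and HOMER. How peaks were called, how the input entered and how the replicates were merged is not given in the sources used here, and library depth is unknown. The authors deposited 1 combined peak list on rn5, per the file headers, with a score per peak of no stated scale, coordinates and the distance from the peak's centre to the nearest TSS in bp. The score is the authors' own and was used only to describe and rank peaks within the list.

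Members, widths, placement, flanking peaks, list counts, Wilson intervals (95%), rank intervals of medians and Poisson counting intervals of scores were computed in Python 3.11.15 with pandas 2.3.3 and scipy 1.17.1. Figures were drawn with matplotlib 3.10.9. The scripts were tested on simulated data. Genes were matched to RefSeq tables of GRCr8, whose coordinates were used for gene order and printed sequences only. The members and lists were chosen with earlier results of these data known. Named genes were the 12 highest-scoring and the 8 widest other members, the up to 3 highest of each list, all Schwann and injury genes with a member, and the peaks at the window's ends. Printed promoters had to lie on the same chromosome in both builds, which left out Olr1768. Some genes that these rules take are left out and not reported here. CpG observed to expected is the number of CG pairs times the length over the product of the C and G counts. Alternatives were a score minimum, 1 peak per gene, protein-coding genes alone, a narrower window, the other annotation column, joined peaks and TSS overlap.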

Additional observations from a re-analysis of the deposited data

How the results depend on the processing

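The 93.07% of members centred upstream kept its value within the counting interval under a score at or above the list's median (1516 members), with the highest-scoring member per gene and with protein-coding genes alone. Widths and scores followed the score minimum. With scores at or above the list's median, the median width was 704.5 bp, the median score 18.40 and the share containing the TSS 35.29%. With the top 25% of scores, 1057 members had 1118 bp, 33.40 and 46.36%. With the highest-scoring member per gene, the medians were 446.5 bp and 11.10. Within 100 bp of the TSS, 236 members had medians of 500 bp and 11.10, 46.61% were centred upstream and 88.98% contained the TSS. Joining peaks within 5000 bp gave a median width of 7478 bp for the region that holds a member. The other annotation column gave the same members. Of 34 lists with a member, 24 kept a count within 1.5 times under the score minimum and 10 did not, and with TSS overlap 3 did and 31 did not. The share over all protein-coding genes fell from 8.28% to 6.26% under the score minimum and to 2.43% with TSS overlap. The loss with TSS overlap was thus general, and these counts do not show how robust a single list is. No paired analysis was possible because the list pools the libraries and has no value per library, and leaving out a replicate could not be run for the same reason. Peaks of 150 bp with scores near 3 rest on few tags, and counts of genes with a member include them.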
